A study of Mus musculus with 8 samples.

Results

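The endothelial and sinusoidal genes described here are 10 genes (Kdr, Pecam1, Vwf, Stab1, Stab2, Cdh5, Tek, Tie1, Lyve1 and Clec4g), chosen by name from 21883 protein-coding genes of the mouse RefSeq annotation. A peak was counted at a gene when it overlapped the gene body or the 10 kb on either side (the locus), and these loci were 32.3 to 187 kb long. Of the 10, Pecam1, Stab1 and Lyve1 are also used by macrophages and were kept apart from the other 7. Peaks of all lists that overlapped were merged into 138775 regions, of which 80 lay at the 10 genes, 56 at the 7 and 24 at the 3.

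The data were ATAC-seq peak lists (a transposase inserts sequencing adapters where chromatin is open) from liver cells of a mouse model of hepatocellular carcinoma. In this model all groups share the deletion of the Rb gene family (floxed alleles recombined by Cre), and no label names mice without it. Cells were released by enzymes from liver or from visible lesions and sorted by flow cytometry for YFP, the mark of recombination, and split by surface Thy1 and EpCAM. The 5 lists were Tumor Sox9 (39644 peaks), Prog-like CK19 (71375 peaks), Prog-like Sox9 (67855 peaks), EpCAM-high CK19 (56932 peaks) and EpCAM-high Sox9 (59454 peaks). The labels list 8 samples in 5 groups: 2 EpCAM-negative, 2 Thy1-positive CK19, 1 Thy1-positive Sox9, 2 EpCAM-high CK19 and 1 EpCAM-high Sox9. No label uses the names Prog-like or Tumor, so those 3 lists were compared under their own names. The meaning of CK19 and Sox9, the Cre driver, the strain and the age of the mice were details not given in the sources used here. Each condition had 1 list, so there was no replicate and no test, and sequencing depth was unknown. Every count below describes these lists, and intervals are exact Clopper-Pearson 95% intervals that cover counting error only.

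Endothelial cells line blood vessels. Those of the liver sinusoids are fenestrated scavengers that take up waste molecules from blood through the receptors Stab1 and Stab2 and lectins such as Clec4g. Kdr is the main receptor for VEGF in vessel growth, while Tek is the receptor for angiopoietins and Tie1 its partner receptor. Cdh5 (VE-cadherin) forms the junctions between endothelial cells, Pecam1 (CD31) is an adhesion molecule, Vwf is a clotting glycoprotein also made by megakaryocytes, and Lyve1 binds hyaluronan on sinusoidal and lymphatic endothelium. Open chromatin at a gene marks places where regulators can bind and is not a measure of its RNA.

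Of the 6 members in the promoter table, Kdr was the one whose 250 bases before the annotated start were covered by peaks. Over chr5:75978456-75978705 (GRCm38.p6, the build that mm10 names, minus strand, RefSeq sequence), peaks covered 0 bases in Tumor Sox9, 250 (CK19) and 186 (Sox9) in Prog-like, and 207 (CK19) and 0 (Sox9) in EpCAM-high. In its sequence, capitals mark the 143 bases (75978520 to 75978662) that lay inside the peak of each of the 3 lists with a peak there. Clec4g (chr8:3720652-3720901, minus strand) and Tie1 (chr4:118489850-118490099, minus strand) are set beside it as genes with no peak over these bases in any of the 5 lists. In their sequences capitals mark matches to AGGAAG, a form of ETS binding site, on either strand. ETS proteins are a family of transcription factors with known roles in endothelial genes.
Kdr: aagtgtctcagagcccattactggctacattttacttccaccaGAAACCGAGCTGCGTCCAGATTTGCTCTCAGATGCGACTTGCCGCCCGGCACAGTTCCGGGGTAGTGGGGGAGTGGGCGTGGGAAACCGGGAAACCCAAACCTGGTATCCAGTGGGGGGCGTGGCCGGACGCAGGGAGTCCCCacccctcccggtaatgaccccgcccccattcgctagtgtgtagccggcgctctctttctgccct
Clec4g: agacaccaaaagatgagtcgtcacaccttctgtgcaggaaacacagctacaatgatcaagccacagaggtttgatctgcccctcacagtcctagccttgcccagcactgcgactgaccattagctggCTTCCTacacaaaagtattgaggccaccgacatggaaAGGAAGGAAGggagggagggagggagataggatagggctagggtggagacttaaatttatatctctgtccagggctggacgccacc
Tie1: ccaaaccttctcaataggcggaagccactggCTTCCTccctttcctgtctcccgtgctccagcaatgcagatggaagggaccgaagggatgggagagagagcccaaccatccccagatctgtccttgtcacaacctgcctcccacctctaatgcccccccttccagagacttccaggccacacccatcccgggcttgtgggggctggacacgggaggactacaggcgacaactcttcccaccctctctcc
Clec4g had 3 ETS matches, whose first bases lay at -123, -86 and -82 from the start, the last pair overlapping, and Tie1 had 1 at -219. Kdr had no AGGAAG in this window. Other forms of ETS site were not searched, so unmarked letters of the 3 sequences may hold them. Of 32851 mouse promoters of this length in the same table, 29.5% held AGGAAG, so a match is common. Stab1 and Stab2 had 1 match each, at -116 and -40, and Tek had none. The other short motifs searched on both strands were AGATAA for GATA factors, in 9.99% of promoters, and TGTTTAC for FOX factors, in 3.17%. They also included TGANTCA for AP-1, in 6.75%, and ACAATG for SOX factors, in 10.7%. The only match to these in the 6 promoters held by the table was 1 ACAATG in Clec4g, at -202. A match describes the letters only. Promoters of Vwf, Cdh5, Pecam1 and Lyve1 were not used here.

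Endothelial and sinusoidal genes held more peaks in the Prog-like lists than in the others. Summed over the 10 loci, there were 18 peaks in Tumor Sox9, 65 (CK19) and 56 (Sox9) in Prog-like, and 20 (CK19) and 23 (Sox9) in EpCAM-high. The 2 Prog-like sums lie far above the other 3, which lie close together. Per 100 kb of locus, the 10 genes had 2.09 peaks in Tumor Sox9, 7.55 (CK19) and 6.50 (Sox9) in Prog-like, and 2.32 (CK19) and 2.67 (Sox9) in EpCAM-high. Across the loci of all protein-coding genes, the same densities were 2.46 in Tumor Sox9, 4.46 (CK19) and 4.18 (Sox9) in Prog-like, and 3.17 (CK19) and 3.52 (Sox9) in EpCAM-high, with a peak counted once for each locus it overlapped. The 10 genes were thus denser in peaks than all genes in both Prog-like lists, and sparser in the other 3. That held for the 7 endothelial genes, with 1.72 in Tumor Sox9, 6.30 (CK19) and 6.16 (Sox9) in Prog-like, and 1.86 (CK19) and 1.86 (Sox9) in EpCAM-high. The 3 genes shared with macrophages were denser than all genes in every list, with 3.68 in Tumor Sox9, 12.9 (CK19) and 7.97 (Sox9) in Prog-like, and 4.29 (CK19) and 6.13 (Sox9) in EpCAM-high. Since longer lists hold more peaks everywhere, each list was also cut to the 39644 peaks with the highest −log10 p. The density at the 10 genes, in peaks per 100 kb, was then 2.09 in Tumor Sox9, 4.30 (CK19) and 4.41 (Sox9) in Prog-like, and 2.09 (CK19) and 2.21 (Sox9) in EpCAM-high. For all genes it was 2.46 in Tumor Sox9, 2.62 (CK19) and 2.56 (Sox9) in Prog-like, and 2.50 (CK19) and 2.48 (Sox9) in EpCAM-high. The 14 macrophage markers described further on moved the same way, with summed locus peaks of 10 in Tumor Sox9, 96 (CK19) and 98 (Sox9) in Prog-like, and 12 (CK19) and 18 (Sox9) in EpCAM-high, and their part in the counts at the 10 genes was not tested. In bulk cells, fewer cells of a type and less open chromatin per cell cannot be told apart.

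**Figure D1:**
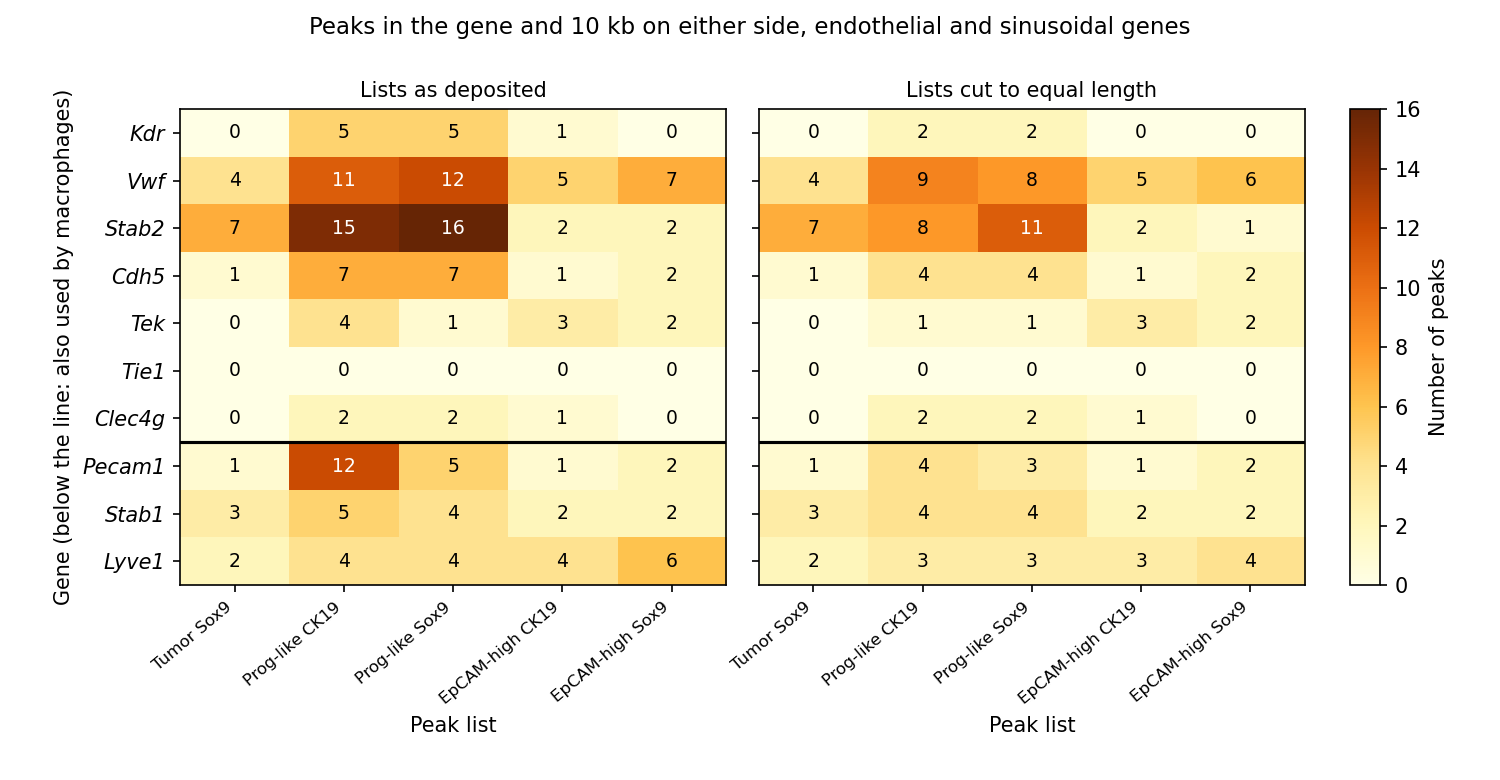
Number of peaks in the gene body and 10 kb on either side for each gene (rows) and peak list (columns), with the lists as deposited on the left and cut to equal length on the right. Genes below the black line are also used by macrophages. The Prog-like columns are darkest at Stab2 (15 and 16 peaks as deposited), followed by Vwf (11 and 12) and, in Prog-like CK19, Pecam1 (12), and the row of Tie1 is 0 throughout.

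Gene by gene, 7 of the 10 (Kdr, Pecam1, Vwf, Stab1, Stab2, Cdh5 and Clec4g) had a higher count of locus peaks for Prog-like than for EpCAM-high in both the CK19 and the Sox9 set, as did 31.7% of all protein-coding genes. None of the 10 had fewer in both sets, against 14.8% of all genes. At equal length the same 7 genes had more in both sets, against 20.9% of all genes, and Tek had fewer in both, against 18.5% of all genes. The 10 genes are long (median 44.6 kb, against 17.2 kb for all genes), and a longer locus more easily holds unequal counts. At least 1 locus peak was found at 6 of 10 genes in Tumor Sox9 (60.0%, interval 26.2 to 87.8%), at 9 in each of Prog-like CK19, Prog-like Sox9 and EpCAM-high CK19 (90.0%, 55.5 to 99.7% in each), and at 7 in EpCAM-high Sox9 (70.0%, 34.8 to 93.3%). In the gene body alone, a peak was found at 5 genes in Tumor Sox9, 9 (CK19) and 9 (Sox9) in Prog-like, and 6 (CK19) and 5 (Sox9) in EpCAM-high. Among all genes the shares with a peak in the whole locus, flanks included, were 68.7% in Tumor Sox9, 74.5% (CK19) and 72.4% (Sox9) in Prog-like, and 75.8% (CK19) and 74.6% (Sox9) in EpCAM-high. No share of all genes was taken for gene bodies alone. No member had a locus peak in Prog-like CK19 and none in EpCAM-high CK19, against 5.77% of all genes. In the Sox9 set Kdr and Clec4g did, which is 2 of 10 against 5.47% of all genes.

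A start peak, one within 1000 bp of the annotated start, was found at 0 of 10 genes in Tumor Sox9. Prog-like CK19 had 5 (Kdr, Vwf, Cdh5, Tek and Lyve1), Prog-like Sox9 had 4 (Kdr, Vwf, Cdh5 and Lyve1), EpCAM-high CK19 had 1 (Kdr) and EpCAM-high Sox9 had 0. For Vwf, Cdh5, Pecam1 and Lyve1 either end of the gene counted, so a peak of these 4 may mark either the first or the last part of the transcript. Among all genes the shares with a start peak were 52.0% in Tumor Sox9, 57.6% (CK19) and 54.6% (Sox9) in Prog-like, and 59.0% (CK19) and 59.0% (Sox9) in EpCAM-high. The members thus lay below all genes in each list. The members' intervals were 0 to 30.8% in Tumor Sox9 and in EpCAM-high Sox9 and 0.253 to 44.5% in EpCAM-high CK19, while those of Prog-like CK19 (18.7 to 81.3%) and Prog-like Sox9 (12.2 to 73.8%) contained the share of all genes. A start peak in both Prog-like lists and in no EpCAM-high list was found at 3 members (Vwf, Cdh5 and Lyve1), against 3.51% of all genes, and the reverse at 0 members, against 5.17% of all genes. These shares are not alike, because either end counted for all 3 members, while 79.9% of all genes had a strand. At each of the 3 the peak lay at the upper gene end, so it may not mark the start. The Cdh5 peak had a −log10 q of only 2.99 (CK19) and 12.5 (Sox9) in Prog-like. At equal length 2 start peaks remained in each Prog-like list, at Vwf and Lyve1, and none in the other 3. The shares of all genes were then 52.0% in Tumor Sox9, 48.3% (CK19) and 46.3% (Sox9) in Prog-like, and 54.4% (CK19) and 52.4% (Sox9) in EpCAM-high. With a window of 2500 bp, as deposited, a start peak was found at 1 member in Tumor Sox9, 8 (CK19) and 7 (Sox9) in Prog-like, and 3 (CK19) and 2 (Sox9) in EpCAM-high. The counts of this wider window have no share of all genes beside them.

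The 3 receptor tyrosine kinases differed from each other. Kdr, the VEGF receptor (chromosome 5, 75932827 to 75979072), had 0 locus peaks in Tumor Sox9, 5 (CK19) and 5 (Sox9) in Prog-like, and 1 (CK19) and 0 (Sox9) in EpCAM-high. Its leading peak lay 44.7 kb downstream of the start and 471 bp inside the far end of the gene, at 75933298 to 75934057 in Prog-like CK19 and 75933335 to 75934127 in Prog-like Sox9. These peaks had a −log10 q of 266 and 251 and a fold enrichment of 19.3 and 22.0, values that are the authors' own, as are all such values below. They depend on depth and rank peaks within a list only. They ranked in the top 2.54% and 1.58% of their lists by −log10 q, their summits lay 1 bp apart, and no peak of the other 3 lists overlapped them. The peaks at the Kdr start were weaker within their lists. They reached a −log10 q of 17.6 (CK19) and 7.83 (Sox9) in Prog-like and 5.23 in EpCAM-high CK19, and none of the 3 was kept at equal length. A further region of both Prog-like lists lay 2.6 kb upstream of the start (75980659 to 75981355, −log10 q 40.2 (CK19) and 55.5 (Sox9) in Prog-like). Both Prog-like lists also shared a region about 8 kb inside the gene, at 75970267 to 75970692.

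Tek, the angiopoietin receptor (chromosome 4, 94739086 to 94874976), had regions of its own in each kind of list. It had 0 locus peaks in Tumor Sox9, 4 (CK19) and 1 (Sox9) in Prog-like, and 3 (CK19) and 2 (Sox9) in EpCAM-high. The Prog-like lists shared a peak 29.6 kb downstream of the start, at 94768573 to 94769269 in Prog-like CK19 (−log10 q 68.7) and 94768559 to 94769050 in Prog-like Sox9 (98.5), that no EpCAM-high peak overlapped. The EpCAM-high lists shared a region 13.4 kb downstream (94752521 to 94752913, −log10 q 11.5 (CK19) and 14.5 (Sox9) in EpCAM-high) that no Prog-like peak overlapped. The strongest Tek peaks of the EpCAM-high lists lay 7.2 kb downstream of the start. There the peak had a −log10 q of 3.99 in Prog-like CK19, which put it at 95.2% of that list from the top, 127 in EpCAM-high CK19 (top 3.31%) and 48.4 in EpCAM-high Sox9 (top 12.1%). Prog-like CK19 alone had a peak at the Tek start, 74 bp downstream of it, with a −log10 q of 5.19. Tek also gave the difference between Prog-like and EpCAM-high opposite signs in the 2 sets, at 1 peak more in the CK19 set and 1 fewer in the Sox9 set. At equal length Tek had 1 peak (CK19) and 1 (Sox9) in Prog-like and 3 (CK19) and 2 (Sox9) in EpCAM-high, fewer in Prog-like in both sets.

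Tie1 (chromosome 4, 118471191 to 118489849) had no locus peak in any of the 5 lists, as was the case for 15.7% of all genes. The peak nearest to the gene lay 33.3 kb away in the Tumor Sox9 and both Prog-like lists, and 15.7 kb (CK19) and 15.6 kb (Sox9) away in EpCAM-high. The absence covers only peaks past the deposited threshold at an unknown depth.

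Cdh5, the junction cadherin (chromosome 8, 104101613 to 104144504), had 1 locus peak in Tumor Sox9, 7 (CK19) and 7 (Sox9) in Prog-like, and 1 (CK19) and 2 (Sox9) in EpCAM-high. All peaks inside its gene body were Prog-like peaks. The widest of them ran from 104110434 to 104111728 in Prog-like CK19 and from 104110459 to 104111654 in Prog-like Sox9, with a fold enrichment of 10.6 and 10.5, and ranked in the top 1.55% and 2.95% of their lists. The peaks of the other lists lay beyond the upper gene end. One region there (chromosome 8, 104146023 to 104146774) was held by all 5 lists, with a −log10 q of 3.05 in Tumor Sox9, 24.2 (CK19) and 16.4 (Sox9) in Prog-like, and 14.5 (CK19) and 11.7 (Sox9) in EpCAM-high. At the upper end of the gene itself, both Prog-like lists had a narrow peak (104144604 to 104144815 in Prog-like CK19, 104144580 to 104144825 in Prog-like Sox9).

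Vwf, the clotting glycoprotein (chromosome 6, 125552948 to 125686679), had 4 locus peaks in Tumor Sox9, 11 (CK19) and 12 (Sox9) in Prog-like, and 5 (CK19) and 7 (Sox9) in EpCAM-high. Its peaks fell into 15 merged regions, of which 8 were held by both Prog-like lists and no EpCAM-high list, 2 by both EpCAM-high lists and no Prog-like list, and 3 by lists of both kinds. A region 19.4 kb inside the lower gene end (125572343 to 125573707) was held by all 5 lists. It gave the strongest Vwf peak of both Prog-like lists (−log10 q 136 (CK19) and 97.5 (Sox9)) and of both EpCAM-high lists (59.2 (CK19) and 64.4 (Sox9)). The 2 regions of the EpCAM-high pair lay at 125585670 to 125586244 and 125591674 to 125592352. A region 738 bp inside the upper gene end (125684685 to 125685941) was held by the Prog-like lists alone, with a −log10 q of 77.1 (CK19) and 69.6 (Sox9) in Prog-like. Vwf thus had peaks in every list, and the further Prog-like peaks lay inside the gene, near its upper end and beyond both ends. Of its regions, 1 lay in the body of the neighbouring gene Ano2, which had 3 locus peaks in Tumor Sox9, 2 (CK19) and 3 (Sox9) in Prog-like, and 4 (CK19) and 7 (Sox9) in EpCAM-high.

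Stab2, a scavenger receptor of sinusoidal endothelium (chromosome 10, 86841194 to 87008038), had the most locus peaks of the 10 in each Prog-like list and in Tumor Sox9. The counts were 7 in Tumor Sox9, 15 (CK19) and 16 (Sox9) in Prog-like, and 2 (CK19) and 2 (Sox9) in EpCAM-high. Of its 18 regions, 12 were held by both Prog-like lists and no EpCAM-high list. They included 6 regions between 118.1 and 128.5 kb downstream of the start (86879298 to 86890188). The strongest Prog-like peak lay 17.4 kb downstream of the start, at 86989805 to 86991184 in Prog-like CK19 (−log10 q 105) and 86989844 to 86991116 in Prog-like Sox9 (117). The strongest Stab2 peak of Tumor Sox9 lay elsewhere, 60.3 kb downstream (86947421 to 86947900, −log10 q 34.3, top 6.10%), in a region held by all 5 lists. The annotated start had no peak within 1000 bp in any list, and the nearest was 8413 bp away, in Prog-like Sox9. At equal length the counts were 7 in Tumor Sox9, 8 (CK19) and 11 (Sox9) in Prog-like, and 2 (CK19) and 1 (Sox9) in EpCAM-high.

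Clec4g, a lectin of liver and lymph node sinusoids (chromosome 8, 3707066 to 3720695), had 0 locus peaks in Tumor Sox9, 2 (CK19) and 2 (Sox9) in Prog-like, and 1 (CK19) and 0 (Sox9) in EpCAM-high, and the same counts at equal length. One region 1.9 kb downstream of the start (3718461 to 3718988) had a −log10 q of 65.1 (CK19) and 39.7 (Sox9) in Prog-like and 17.4 in EpCAM-high CK19. The other, 8.8 kb downstream (3711330 to 3712288), was held by the Prog-like lists alone, with a −log10 q of 85.8 and 47.0. Both lay inside the gene, and the nearest to the start was 1663 bp from it.

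**Figure D2:**
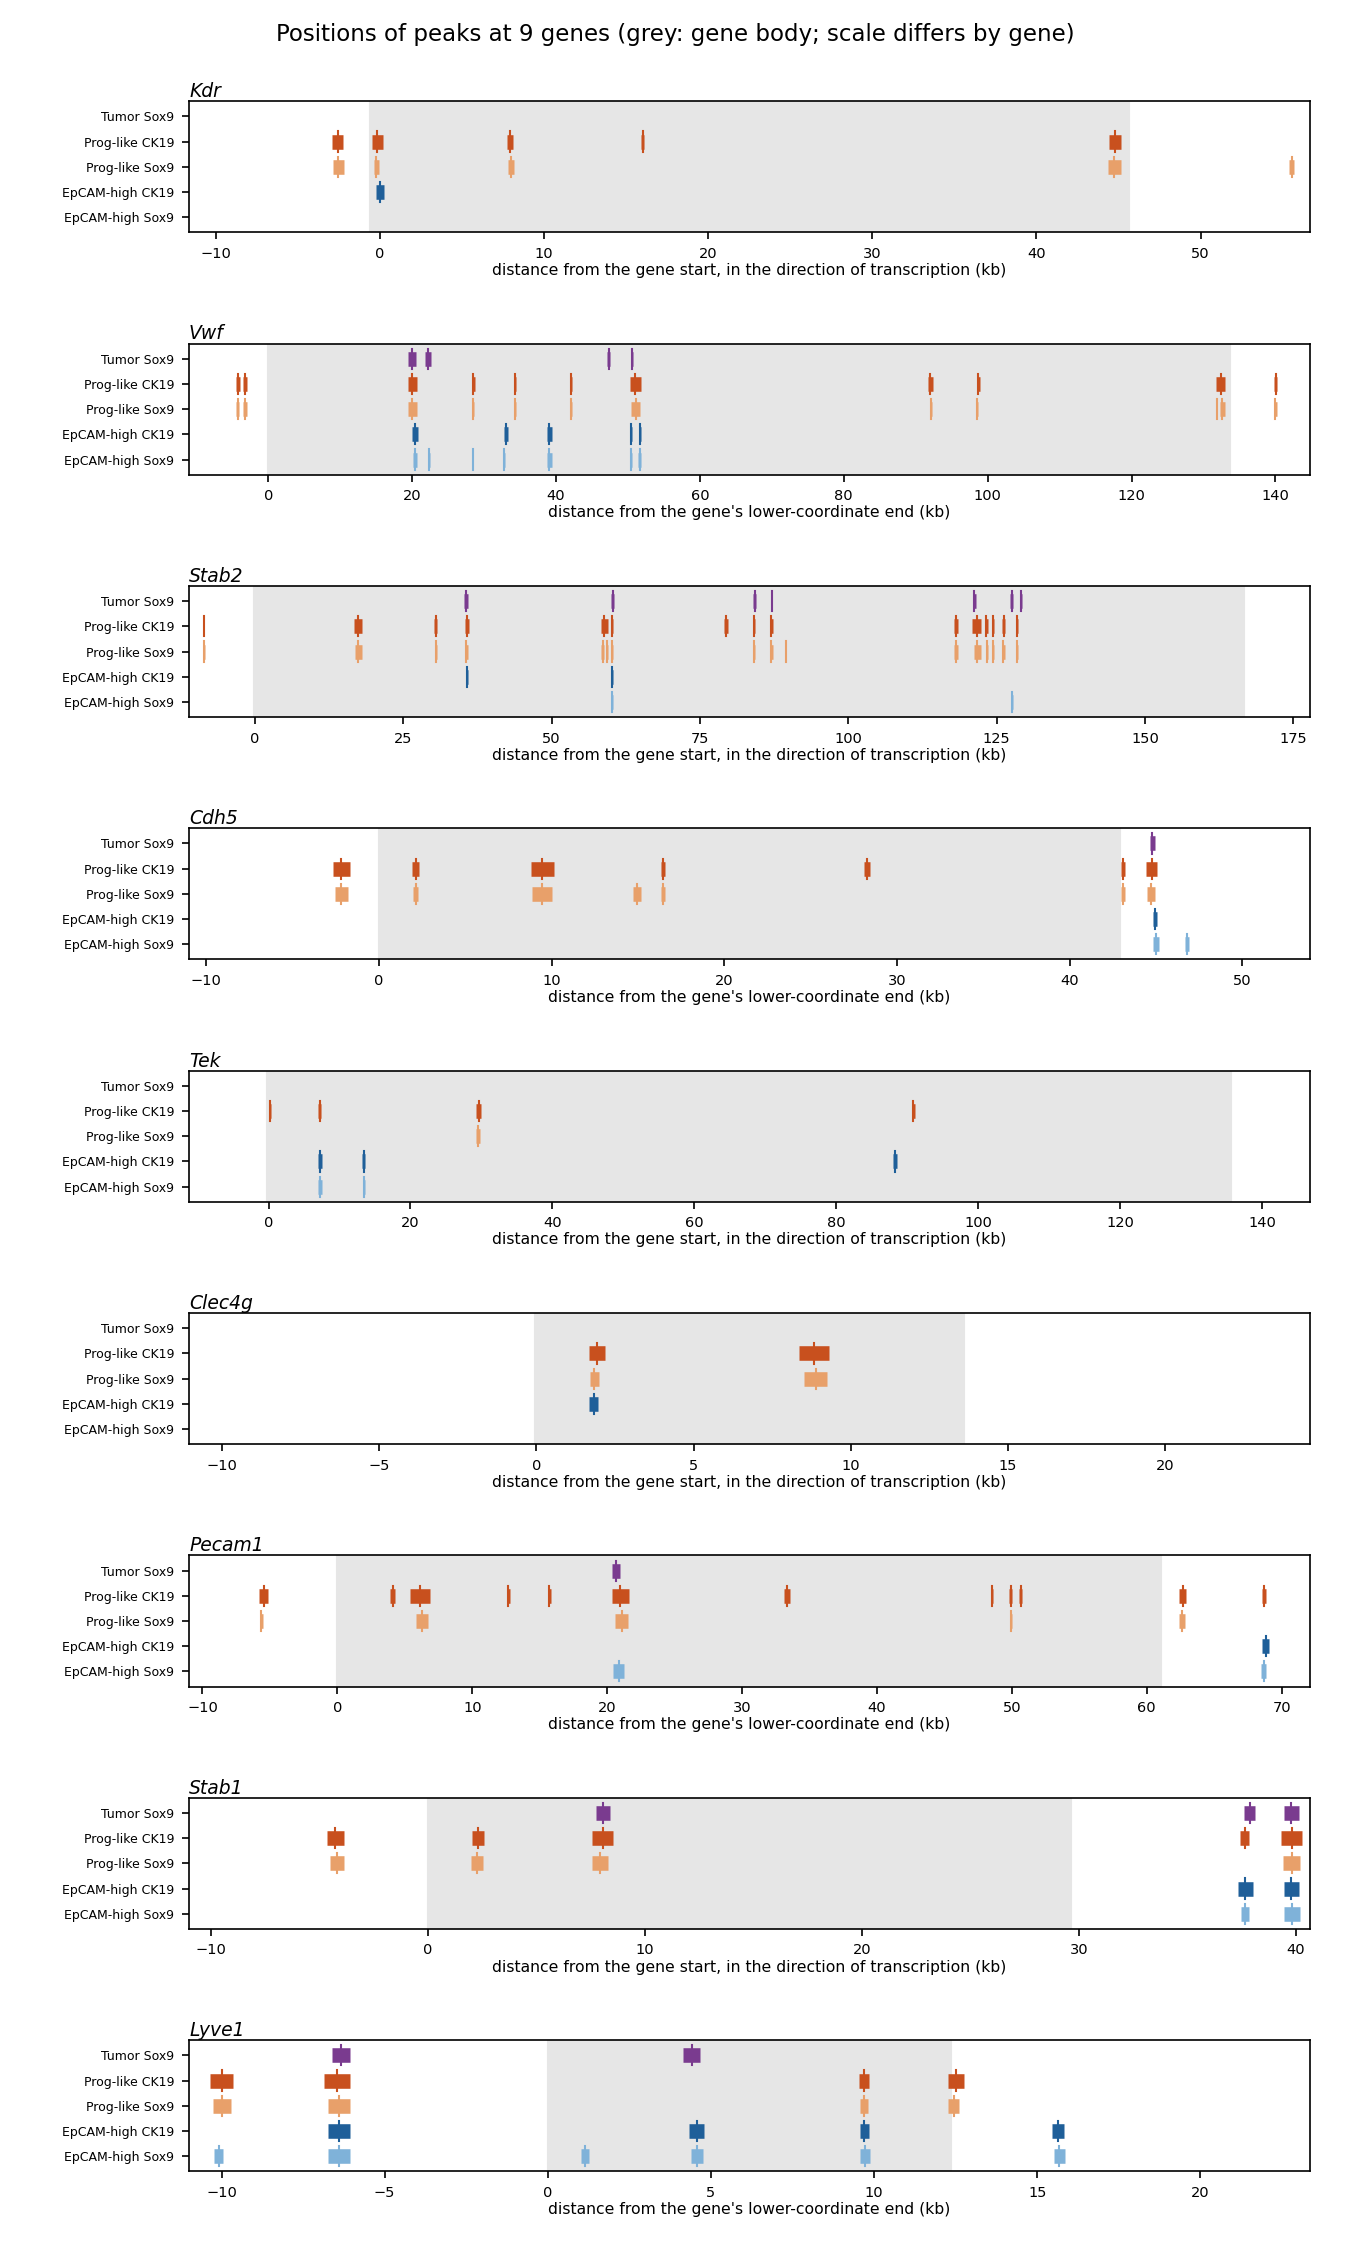
Positions of peaks at the 9 genes with a locus peak, 1 row for each list, with the gene body in grey and a vertical tick at the middle of each peak. The horizontal axis is the distance in kb from the annotated start in the direction of transcription, or from the lower-coordinate gene end for Vwf, Cdh5, Pecam1 and Lyve1, and its scale differs by gene. The 2 Prog-like rows repeat each other at most places, while the EpCAM-high rows are nearly empty inside Kdr, Cdh5 and Stab2.

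The 3 genes that macrophages also use had a less uniform pattern. Summed, they had 6 locus peaks in Tumor Sox9, 21 (CK19) and 13 (Sox9) in Prog-like, and 7 (CK19) and 10 (Sox9) in EpCAM-high. The other 7 genes had 12 in Tumor Sox9, 44 (CK19) and 43 (Sox9) in Prog-like, and 13 (CK19) and 13 (Sox9) in EpCAM-high. At equal length the 3 had 6 in Tumor Sox9, 11 (CK19) and 10 (Sox9) in Prog-like, and 6 (CK19) and 8 (Sox9) in EpCAM-high. The 7 had 12 in Tumor Sox9, 26 (CK19) and 28 (Sox9) in Prog-like, and 12 (CK19) and 11 (Sox9) in EpCAM-high at equal length. Higher Prog-like counts were thus found in both groups of genes. The part of macrophages in the peaks at the 7 was not tested.

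Pecam1 (chromosome 11, 106654213 to 106715281) had 1 locus peak in Tumor Sox9, 12 (CK19) and 5 (Sox9) in Prog-like, and 1 (CK19) and 2 (Sox9) in EpCAM-high. Of its 12 regions, 6 were held by 1 Prog-like list alone. At equal length the 2 Prog-like counts were 4 and 3. Its widest region (106659586 to 106661111) was held by both Prog-like lists and no other, with a −log10 q of 41.3 (CK19) and 21.0 (Sox9) in Prog-like. The strongest Pecam1 peak of both Prog-like lists lay at 106674555 to 106675819 (−log10 q 71.3 (CK19) and 27.8 (Sox9) in Prog-like), a region that Tumor Sox9 and EpCAM-high Sox9 also held.

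Stab1 (chromosome 14, 31139017 to 31168651) had 3 locus peaks in Tumor Sox9, 5 (CK19) and 4 (Sox9) in Prog-like, and 2 (CK19) and 2 (Sox9) in EpCAM-high. Its EpCAM-high peaks all lay outside the gene, within 1000 bp of an end of the neighbouring genes Smim4 and Nt5dc2. Inside the gene, the region at 31160094 to 31161080 had a −log10 q of 5.45 in Tumor Sox9, 122 (CK19) and 62.6 (Sox9) in Prog-like. A second region inside the gene, at 31166069 to 31166646, was held by the Prog-like lists alone. The third of their regions (31172493 to 31173289) lay upstream in the body of Nisch.

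Lyve1 (chromosome 7, 110850607 to 110862953) had 2 locus peaks in Tumor Sox9, 4 (CK19) and 4 (Sox9) in Prog-like, and 4 (CK19) and 6 (Sox9) in EpCAM-high. Here the lists differed in where the peaks lay, and the Prog-like lists did not hold the most. A peak across the upper gene end was found in Prog-like CK19 (110862872 to 110863358, −log10 q 44.8) and in Prog-like Sox9 (110862880 to 110863220, 39.7), with none in the other 3 lists. The EpCAM-high lists instead shared a peak about 3 kb beyond that end (110866063 to 110866433 in EpCAM-high CK19, 110866114 to 110866459 in EpCAM-high Sox9) and another inside the gene (110854933 to 110855401 in EpCAM-high CK19), where Tumor Sox9 also had a peak (110854748 to 110855283). A region of all 5 lists at the lower flank lay at an end of the neighbouring gene Rnf141, and cannot be assigned to Lyve1 alone.

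Of the 80 merged regions at the 10 genes, 38 (47.5%, interval 36.2 to 59.0%) were held by both Prog-like lists and no EpCAM-high list, against 26.6% of all 138775 regions. Another 5 (6.25%) were held by both EpCAM-high lists and no Prog-like list, against 13.9% of all regions. At equal list length the first kind numbered 26 and the second 8. The shares of all regions at equal length were not taken, so these 2 counts have no background beside them. A further 16 regions, beside 18.0% of all, were held by lists of both kinds, 14 (17.5%, against 11.4%) by 1 Prog-like list alone, 5 (6.25%, against 21.6%) by 1 EpCAM-high list alone and 2 (2.50%, against 8.45%) by Tumor Sox9 alone. Among the 56 regions of the 7 endothelial genes, 30 (53.6%, 39.7 to 67.0%) were of the first kind, and among the 24 of the 3 genes shared with macrophages, 8 (33.3%, 15.6 to 55.3%). These 2 intervals overlap. Regions of 1 gene are not independent, so the true uncertainty is wider. The 38 regions were spread over 9 genes, with 28 in gene bodies and 10 in the flanks. Where both Prog-like lists held a region (51 of the 80), their summits lay a median of 17 bp apart, and within 50 bp in 42 of the 51.

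**Figure D3:**
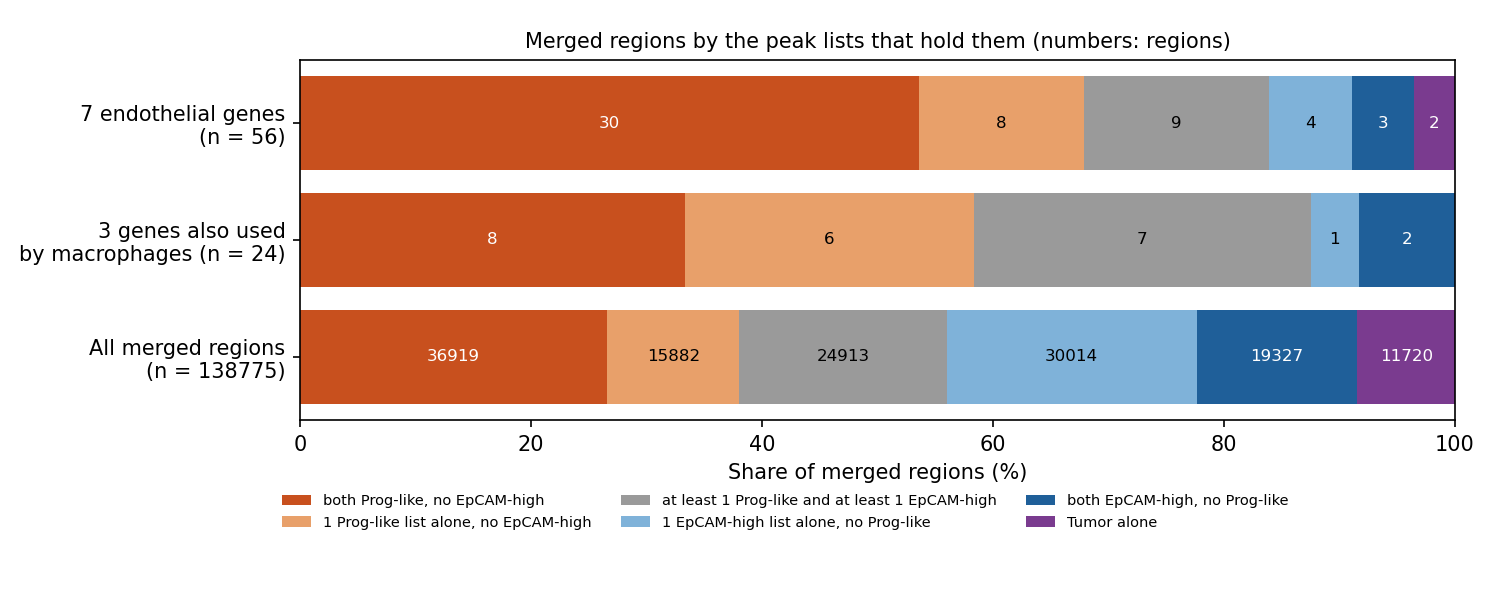
Share of merged regions (horizontal axis, %) by the lists that hold them, for the 7 endothelial genes, the 3 genes also used by macrophages and all merged regions, with the number of regions printed on each bar. Regions of the other classes may hold a Tumor Sox9 peak too. The class of both Prog-like lists and no EpCAM-high list takes 53.6% of the first bar, 33.3% of the second and 26.6% of the third.

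Set against each other at the 10 genes, the Prog-like CK19 and Prog-like Sox9 lists shared 51 of the 68 regions either held (75.0%, against 74.7% over all regions), and the EpCAM-high CK19 and EpCAM-high Sox9 lists 15 of 26 (57.7%, against 52.3%). The agreement of each pair at these genes was thus close to that across the genome. Between kinds, Prog-like CK19 and EpCAM-high CK19 shared 13 regions, which is 13 of the 65 regions of Prog-like CK19 and 68.4% of those of EpCAM-high CK19 (29.9% and 37.8% over all regions). Prog-like Sox9 and EpCAM-high Sox9 shared 10, which is 18.5% of the regions of Prog-like Sox9 and 45.5% of those of EpCAM-high Sox9 (31.2% and 35.5% over all regions). Prog-like CK19 had more locus peaks than Prog-like Sox9 at 3 members (Pecam1, Stab1 and Tek), against 24.3% of all genes, and fewer at 2 (Vwf and Stab2), against 13.3% of all genes. EpCAM-high CK19 had more than EpCAM-high Sox9 at 3 (Kdr, Tek and Clec4g), against 15.3% of all genes, and fewer at 4 (Pecam1, Vwf, Cdh5 and Lyve1), against 26.9% of all genes.

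The Tumor Sox9 list had fewer locus peaks than Prog-like Sox9 at 9 of the 10 members, all but Tie1, against 44.9% of all genes, and more at 0, against 15.7% of all genes. Set against EpCAM-high Sox9 it had more at 2 (Stab1 and Stab2), against 13.2% of all genes, and fewer at 5 (Pecam1, Vwf, Cdh5, Tek and Lyve1), against 38.0% of all genes. Tumor Sox9 held 19 of the 80 regions, counting 1 Lyve1 region whose Tumor Sox9 peak itself ended outside the locus. Of these 19, 10 were also held by Prog-like and EpCAM-high lists (52.6%, against 41.4% of all Tumor Sox9 regions), 4 by Prog-like lists and no EpCAM-high list (21.1%, against 4.03%), 3 by EpCAM-high lists and no Prog-like list (15.8%, against 24.7%) and 2 by no other list (10.5%, against 29.9%). The 4 that it shared with Prog-like lists alone lay at Stab2 (3 regions) and Stab1 (1 region). Its peaks there had a −log10 q of 7.83, 6.90 and 6.14 at Stab2 and 5.45 at Stab1, all below its list's median of 8.78. In the Stab2 region at 86885547 to 86887075 the Tumor Sox9 summit lay at 86886689, and the Prog-like summits at 86885889 (CK19) and 86885886 (Sox9). Peaks at these genes were spread over the ranks of their own lists. Those above their list's median −log10 q were 5 of 18 for Tumor Sox9, 35 of 65 (CK19) and 33 of 56 (Sox9) for Prog-like, and 11 of 20 (CK19) and 13 of 23 (Sox9) for EpCAM-high.

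**Figure D4:**
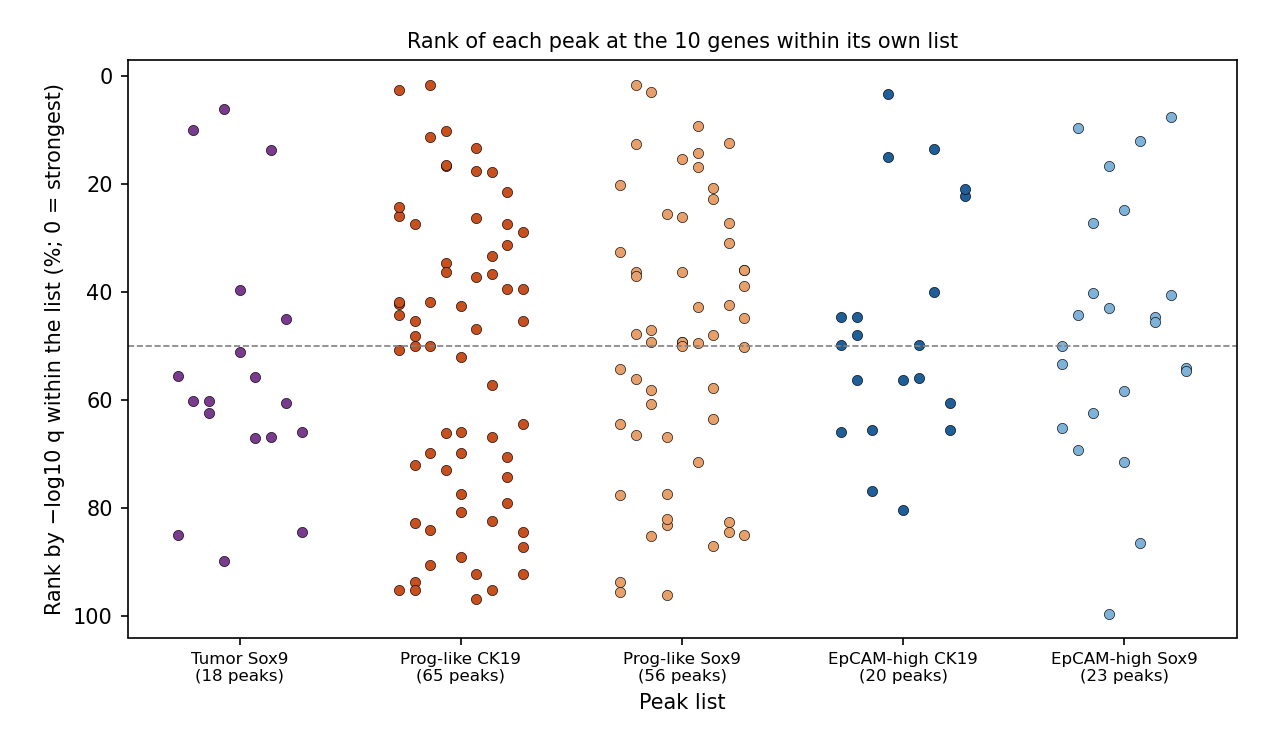
Rank of each peak at the 10 genes within its own list by −log10 q (vertical axis, %, with the strongest at the top), for each of the 5 lists, with points spread sideways for legibility and a dashed line at the list's median. Points fill nearly the whole range in both Prog-like lists, and 13 of the 18 Tumor Sox9 peaks lie below the line.

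Other gene lists of endothelium differed less uniformly between the lists. Of 18 other endothelial surface genes, 7 had a start peak in Tumor Sox9, 10 (CK19) and 10 (Sox9) in Prog-like, and 9 (CK19) and 10 (Sox9) in EpCAM-high. Among these 18, 9 had a higher count for Prog-like than for EpCAM-high in both sets (31.7% of all genes) and 3 had a lower one (14.8% of all genes). At equal length 4 had more (20.9% of all genes) and 4 had fewer (18.5% of all genes), both near the share of all genes. Icam2, an adhesion molecule, was the gene of this list with a start peak in both Prog-like lists and no EpCAM-high list. In this list and those below, either gene end counted for genes without a strand, Icam2 among them. Its locus peaks numbered 2 (CK19) and 1 (Sox9) in Prog-like, and 1 (CK19) and 2 (Sox9) in EpCAM-high. Of 12 endothelial transcription factors, the number with a start peak was 4 in Tumor Sox9, 8 (CK19) and 8 (Sox9) in Prog-like, and 5 (CK19) and 6 (Sox9) in EpCAM-high, and 5 had more locus peaks in Prog-like in both sets against 1 with fewer. At equal length 4 had more and 2 had fewer. The shares of all genes with more and with fewer were 31.7% and 14.8% as deposited, and 20.9% and 18.5% at equal length. Lmo2, a bridging factor of blood and vessel development, had a peak at either gene end in both Prog-like lists alone, as it had no strand. Locus peaks of Lmo2 numbered 1 in Tumor Sox9, 6 (CK19) and 5 (Sox9) in Prog-like, and 2 (CK19) and 2 (Sox9) in EpCAM-high. Gata2 and Lyl1, also regulators of blood and endothelium and both with a strand, had a start peak in both Prog-like lists and no EpCAM-high list. At equal length Gata2 had 0 locus peaks (CK19) and 0 (Sox9) in Prog-like, and Lyl1 had 1 (CK19) and 1 (Sox9).

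Of 14 other sinusoidal genes, 3 had a start peak in Tumor Sox9, 8 (CK19) and 7 (Sox9) in Prog-like, and 6 (CK19) and 8 (Sox9) in EpCAM-high. Among the 14, 6 had more locus peaks in Prog-like in both sets (31.7% of all genes) and 3 fewer (14.8% of all genes). At equal length 4 had more (20.9% of all genes) and 4 fewer (18.5% of all genes). The start peak was in both Prog-like lists and no EpCAM-high list at Mrc1, a mannose receptor, Fcgr2b, an Fc receptor, and Cd36, a fatty acid receptor, which macrophages use too. Locus peaks of Mrc1 numbered 1 in Tumor Sox9, 17 (CK19) and 20 (Sox9) in Prog-like, and 4 (CK19) and 5 (Sox9) in EpCAM-high. Those of Fcgr2b numbered 0 in Tumor Sox9, 5 (CK19) and 6 (Sox9) in Prog-like, and 0 (CK19) and 1 (Sox9) in EpCAM-high. The reverse was found at Wnt2 and Wnt9b, the Wnt ligands that liver endothelium sends to hepatocytes. The 8 ligands of the VEGF and angiopoietin families had 28 locus peaks in Tumor Sox9, 20 (CK19) and 13 (Sox9) in Prog-like, and 36 (CK19) and 36 (Sox9) in EpCAM-high. Of the 8, 2 had more peaks in Prog-like in both sets (31.7% of all genes) and 5 fewer (14.8% of all genes). At equal length 0 had more (20.9% of all genes) and 3 fewer (18.5% of all genes). Most of the gap in the sums was at Angpt1, named here after its values were seen, with 5 peaks (CK19) and 3 (Sox9) in Prog-like and 16 (CK19) and 17 (Sox9) in EpCAM-high. The angiopoietin Angpt4 was the ligand with a start peak in both Prog-like lists and no EpCAM-high list.

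Among the markers of other cells, those of macrophages moved with the Prog-like lists as well. All 14 macrophage markers had a start peak in both Prog-like lists, against 2 in Tumor Sox9 and 2 (CK19) and 3 (Sox9) in EpCAM-high. The Kupffer cell genes Timd4, Vsig4, Marco and Adgre1 had 0 locus peaks in Tumor Sox9 and in both EpCAM-high lists, and 5 to 14 each in the Prog-like lists. These markers moved with the members, including the 3 shared genes, and their part in the members' peaks was not tested. Of 7 platelet and megakaryocyte genes, 1 (Pf4) had a start peak in both Prog-like lists, and locus peaks of the list summed to 5 in Tumor Sox9, 9 (CK19) and 10 (Sox9) in Prog-like, and 10 (CK19) and 13 (Sox9) in EpCAM-high. None of 6 lymphoid markers had a start peak in any list. Biliary markers ran the other way: 4 of 8 had a start peak in Tumor Sox9, 4 (CK19) and 1 (Sox9) in Prog-like, and 8 (CK19) and 8 (Sox9) in EpCAM-high. The duct genes Krt19, Krt7 and Cftr had one in both EpCAM-high lists and no Prog-like list. So did the hepatocyte genes Alb, Ttr and Hnf4a, with either gene end counted for Krt19 and Ttr. Hepatocyte markers had a start peak at 7 of 8 genes in Tumor Sox9, 0 (CK19) and 0 (Sox9) in Prog-like, and 3 (CK19) and 4 (Sox9) in EpCAM-high. Locus peaks of the 8 stellate markers summed to 3 in Tumor Sox9, 20 (CK19) and 20 (Sox9) in Prog-like, and 25 (CK19) and 23 (Sox9) in EpCAM-high. These sums hide genes that went opposite ways, named here after their values were seen. Pdgfrb had 9 peaks (CK19) and 8 (Sox9) in Prog-like and 1 (CK19) and 2 (Sox9) in EpCAM-high, and Acta2 had 7 (CK19) and 8 (Sox9) in Prog-like and 1 (CK19) and 3 (Sox9) in EpCAM-high. Reln had 1 (CK19) and 1 (Sox9) in Prog-like and 15 (CK19) and 13 (Sox9) in EpCAM-high.

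**Figure D5:**
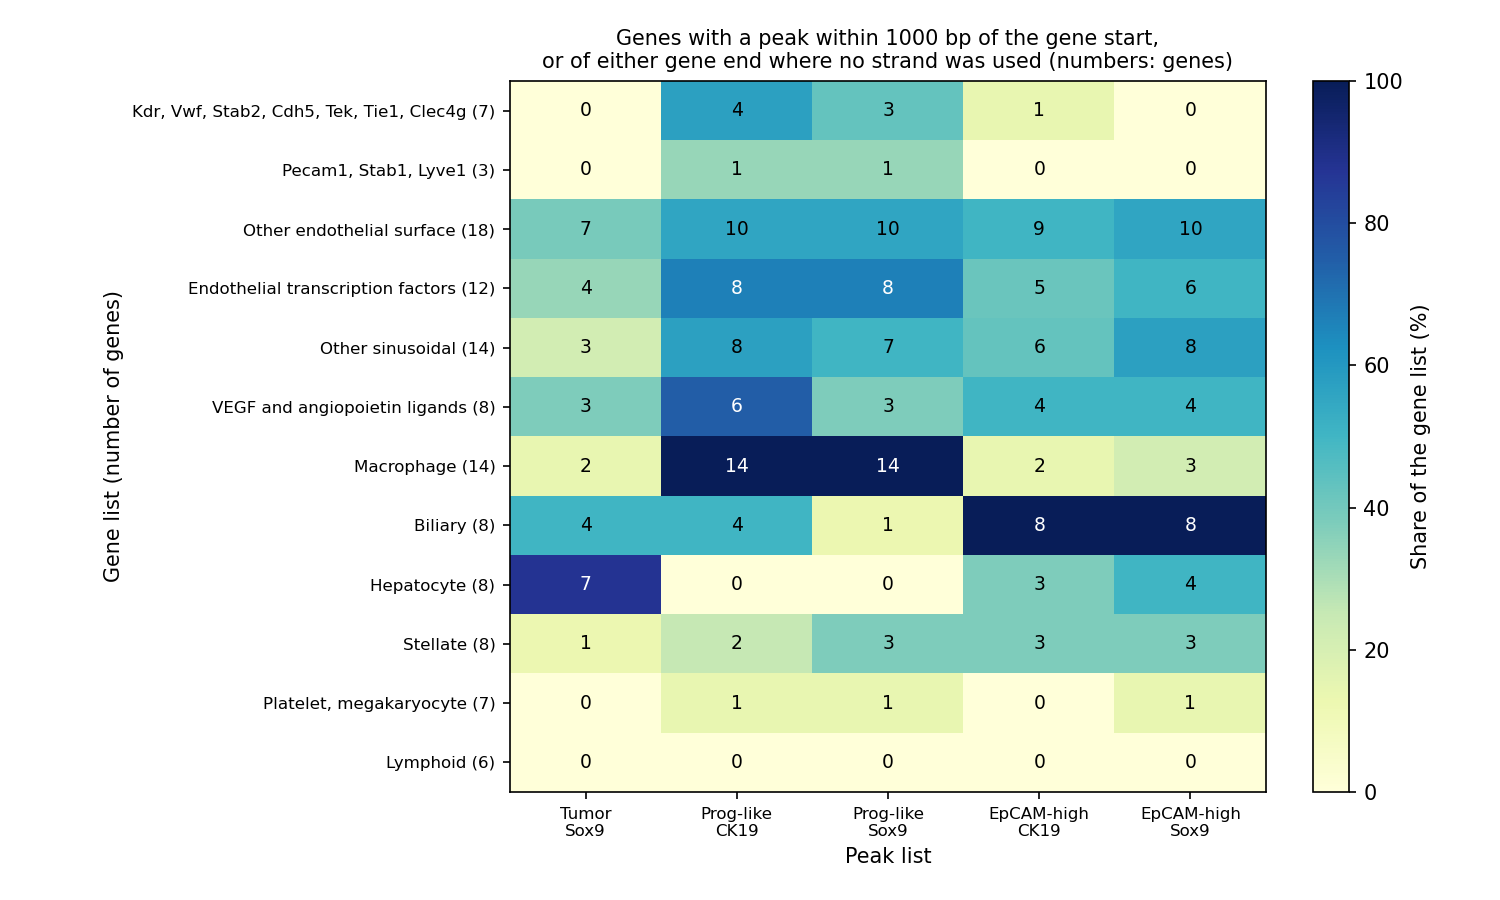
Number of genes of each list (rows, list size in brackets) with a start peak in each peak list (columns), coloured by the share of the list in %. A start peak lies within 1000 bp of the annotated start, or of either gene end for the 42 of 113 genes whose strand was not used. All 14 macrophage genes have one in both Prog-like lists, and the 7 endothelial genes have 0, 4, 3, 1 and 0 from left to right.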

How the data were processed

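ATAC-seq peak lists were analysed as the authors deposited them, 1 for each of 5 conditions. Per the submitters' processing notes, Bowtie 1.1.2, MACS2, HOMER and deepTools were used with the build mm10, with no role given for each. How samples were pooled, reads shifted and duplicates treated was not given in the sources used here. The deposited columns are in the narrowPeak layout: a display score (not used), a fold enrichment (a linear ratio), −log10 p-values and −log10 q-values, and the summit's offset in bp. They are the authors' values and served only to rank or filter peaks within a list. The lowest deposited −log10 q was 1.30 to 1.32, and 70.8 to 92.4% of peaks had 5 or more.

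Gene positions came from RefSeq for GRCm38.p6 (21883 genes). All 10 gene symbols matched. Strand and start came from the promoter table for 6 of the 10 genes and 79.9% of all genes, otherwise either gene end was used. Exons, introns and UTRs were not separated. Overlap meant at least 1 bp, and the start window was 1000 bp on either side. Counts were made with Python 3.11.15, pandas 2.3.3 and NumPy 2.4.6, intervals with SciPy 1.17.1, and figures with matplotlib 3.10.9. The counting was tested on simulated peaks. The 10 genes and the other lists were chosen with earlier results of these data known. Named were the 10 genes, genes overlapping their loci, up to 4 genes per list and direction with a start peak in both lists of one kind and neither of the other, and the 5 genes most alike in their shares of peaks. Of the genes so named, 1 is not reported here. Alternatives were lists of equal length, only peaks of −log10 q 5 or more, other windows (gene body alone, 50 kb flanks, starts of 500 or 2500 bp), summits, a 50% overlap and, added after seeing the data, leaving out peaks at neighbouring gene ends.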

Additional observations from a re-analysis of the deposited data

Results flagged for a closer look

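Tek was picked out because the difference in locus peaks between Prog-like and EpCAM-high had opposite signs in the 2 sets. It was 1 in the CK19 set (4 Prog-like peaks, 3 EpCAM-high peaks) and -1 in the Sox9 set (1 Prog-like peak, 2 EpCAM-high peaks). At equal length Tek had 1 peak (CK19) and 1 (Sox9) in Prog-like and 3 (CK19) and 2 (Sox9) in EpCAM-high, so the signs were not opposite there. With 1 list per condition, the difference between the sets was not tested.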

How the results depend on the processing

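Of 76 alternative values of the main results, 60 stayed within 1.5 times the main count and 16 moved. With 50 kb flanks the summed locus peaks were 39 in Tumor Sox9, 103 (CK19) and 93 (Sox9) in Prog-like, and 54 (CK19) and 55 (Sox9) in EpCAM-high, by construction of longer loci. With the gene body alone EpCAM-high Sox9 had 15. At equal list length Prog-like CK19 summed to 37, start peaks were found at 2 members in each Prog-like list and 0 in EpCAM-high CK19, and 8 regions were held by both EpCAM-high lists and no Prog-like list. With a start window of 2500 bp, start peaks were found at 1 member in Tumor Sox9, 8 (CK19) and 7 (Sox9) in Prog-like, and 3 (CK19) and 2 (Sox9) in EpCAM-high. No share of all genes stands beside these counts of the wider window. Leaving out Tek gave 37 of 74 regions held by both Prog-like lists and no EpCAM-high list. Of 150 values of single members, 118 stayed within that range and 32 moved, and Tek's CK19 difference changed sign at equal length. No paired analysis was possible because each condition had 1 peak list. Depth was unknown, so a missing peak can lie below the threshold of a shallower library.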

Other observations

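Among 3640 protein-coding genes outside the lists with at least 20 locus peaks, the genes whose shares over the 5 lists lay nearest to those of the 7 endothelial genes summed were Acp5, Ptpn18, Riok3, Rnase11 and Snx8. Each had 2 locus peaks in Tumor Sox9, 7 (CK19) and 7 (Sox9) in Prog-like, and 2 (CK19) and 2 (Sox9) in EpCAM-high. The likeness (Euclidean distance of 0.0094 between shares) rests on 5 lists and 20 peaks a gene. A sixth gene was at the same distance and was left out by alphabetical order. Among neighbouring genes, locus peaks of Mrvi1, beside Lyve1, numbered 4 in Tumor Sox9, 10 (CK19) and 10 (Sox9) in Prog-like, and 7 (CK19) and 9 (Sox9) in EpCAM-high. Those of Nisch, beside Stab1, numbered 3 in Tumor Sox9, 9 (CK19) and 8 (Sox9) in Prog-like, and 2 (CK19) and 2 (Sox9) in EpCAM-high. Eqtn, beside Tek, had 0 in Tumor Sox9, 1 (CK19) and 2 (Sox9) in Prog-like, and 0 (CK19) and 0 (Sox9) in EpCAM-high. Nt5dc3, beside Stab2, had 1 in Tumor Sox9, 3 (CK19) and 2 (Sox9) in Prog-like, and 3 (CK19) and 2 (Sox9) in EpCAM-high.

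Besides Tie1, genes of the other lists with no locus peak in any of the 5 lists included Cldn5, a tight junction gene of endothelium, Cyp2e1, a hepatocyte enzyme, Des, a stellate cell filament, and the lymphoid genes Cd3e and Ncr1. They were named after their values were seen. Fli1, an ETS factor of endothelial and blood cells also named after its values were seen, had 0 locus peaks in Tumor Sox9, 19 (CK19) and 15 (Sox9) in Prog-like, and 0 (CK19) and 1 (Sox9) in EpCAM-high. At equal length it had 0 in Tumor Sox9, 13 (CK19) and 14 (Sox9) in Prog-like, and 0 (CK19) and 0 (Sox9) in EpCAM-high. Of the 12 endothelial transcription factors, which include Fli1, 5 had more in Prog-like in both sets and 1, Sox17, had fewer. The shares of all genes were 31.7% and 14.8%. Sox17 had 2 (CK19) and 0 (Sox9) in Prog-like, and 3 (CK19) and 4 (Sox9) in EpCAM-high. At equal length Sox17 had 0 (CK19) and 0 (Sox9) in Prog-like, and 3 (CK19) and 4 (Sox9) in EpCAM-high.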
